A study of Mus musculus with 10 samples.

Results

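The genes described here are those of the kinesins, of the dyneins of the cytoplasm and cilia, and of dynactin, in the lumbar spinal cord of the mouse. They were chosen by symbol, as the rows of the deposited table whose name begins with *Kif* and a digit, *Klc* and a digit, *Dync* and a digit, *Dynl*, or *Dctn* and a digit, with a base mean of at least 10. This rule found 57 genes among the 25232 in the table. The RNA came from 10 female mice of 90 days with the strain labelled as C57BL/6 (C57BL/6J in the methods), 5 of which were SOD1G93A mice, with a mutant human *SOD1* gene of familial ALS, and 5 of which were their wild type littermates (WT). The SOD1G93A line holds many copies of a human transgene beside the mouse gene, so it models the disease at a high dose of the mutant protein. The tissue is labelled as spinal cord, and the lumbar part is stated in the methods. Each gene has 1 value here, the base mean, which is the authors' mean over the libraries of both genotypes of the counts divided by size factors. The levels below therefore describe SOD1G93A and WT cords together, carry no error, and allow no statement on the difference between the genotypes.

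Kinesins and dynein are the motors that walk along microtubules. In an axon the microtubules point outward, so most kinesins carry cargo from the cell body to the terminals and cytoplasmic dynein, with its activator dynactin, carries cargo back. A motor neuron of the lumbar cord supplies a muscle through a very long axon, and mutations in *KIF5A* and in *DCTN1* are known causes of human motor neuron disease. Other kinesins build and move the spindle of dividing cells, and a further set works in cilia. The genes were therefore grouped into 37 axonal transport motors, 9 mitotic kinesins, 8 ciliary motors and 3 other kinesins. The transport group also holds genes better known from cilia, dendrites or testis, among them *Kif17*, *Dynlrb2* and *Klc3*.

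The symbol pattern alone matched 66 rows, of which 9 were under the minimum. The genes just above it were the mitotic kinesins *Kif14*, *Kif20b* and *Kif23*, with base means of 14.8, 23.6 and 25.2. The genes just below it were the dynein light chain gene *Dynlt1f* (8.66) and the mitotic kinesins *Kif2c* (8.30) and *Kif18b* (6.89). *Kif28* had a base mean of 4.27 and *Kif12* of 0.396. *Kif16bos*, at 0.0932, is an antisense transcript and not a motor. The other 3, *Dynlt1c*, *Kif2b* and *Kif4-ps*, were listed at 0.

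Levels of different genes are compared as the base mean per kilobase of the gene's merged exons, named the level below. The genes of the table with a base mean of at least 10 and a gene model, 15624 in number, had a median level of 116.5, and a gene's percentile is its rank among them. The tissue label was set against marker genes by base mean. The 5 neuronal markers ran from 3498 to 59050, the value of *Snap25*. The 4 oligodendrocyte markers ran from 5348 to 319615 (the myelin gene *Mbp*), and the 3 astrocyte markers from 3959 to 56290 (*Gfap*). The 3 microglial markers ran from 583 to 3041 and the 2 endothelial markers from 631 to 710. Of the 6 motor neuron markers, *Chat*, *Slc5a7*, *Slc18a3* and *Prph* had base means of 735, 2316, 1170 and 1424, and the transcription factor genes *Mnx1* and *Isl1* had 37.3 and 45.6, at percentiles 13.8 and 9.79 of the level. *Hoxc10* and *Hoxd10*, which are used at the lumbar level of the cord, had 489 and 152, and the forebrain genes *Emx1* and *Neurod6* had 0.993 and 78.9. The cord holds many cell types, so a low level can come from few cells of a type or from little RNA in each cell, and these cannot be told apart in bulk RNA.

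The motors of axonal transport were among the most abundant transcripts of the cord. Their median level was 948, at percentile 93.5, and 31 of the 37 stood above the median of all genes. Above percentile 90 lay 20 of them, or 54.1%, where 10% of all genes lie by construction. The mitotic kinesins had a median level of 3.90, at percentile 2.11, and 0 of the 9 were above the median of all genes. The ratio of the transport to the mitotic median was 243. It was 26.1 with the minimum raised to 50, which leaves only *Kif20a* and *Kif22* of the mitotic group, and 99.3 with no scaling by length. Ciliary motors had a median of 40.5, with 1 of 8 above the median of all genes.

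**Figure D1:**
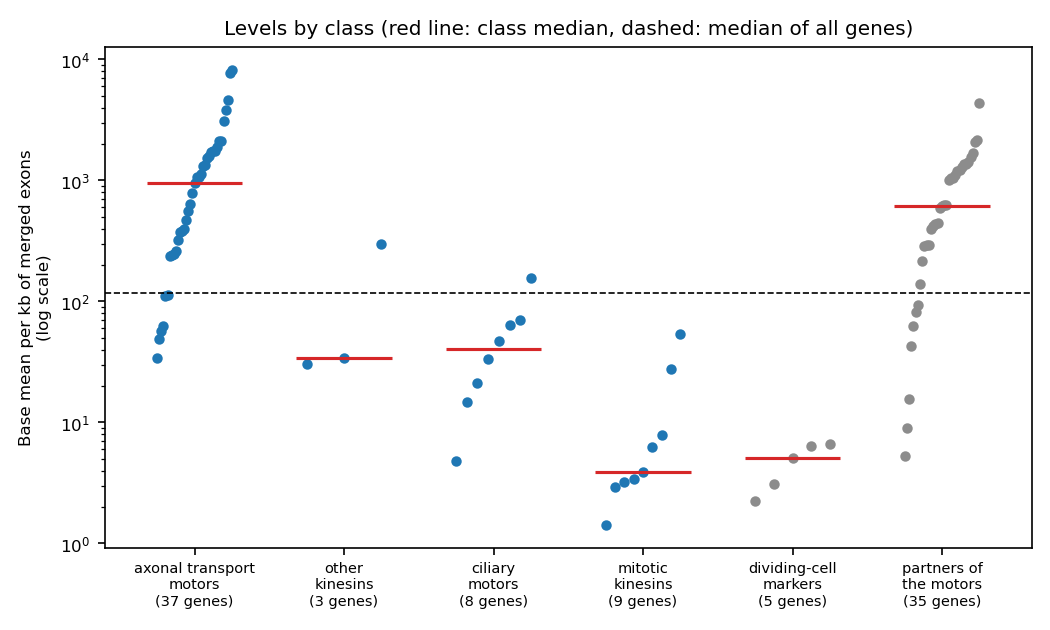
Level (base mean per kilobase of merged exons, log scale) of each gene in 4 classes of members and, in grey, of 5 markers of dividing cells and 35 partners of the motors; each point is a gene, red lines are class medians and the dashed line is the median of all genes, 116.5. Transport motors have a median of 948 and mitotic kinesins one of 3.90.

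All 57 genes together held 1.53% of the table's summed base mean. The transport motors accounted for 98.4% of that amount and the mitotic kinesins for 0.175%. *Kif5a*, *Kif1a* and *Kif1b* alone made up 40.7% of it, with base means of 57504, 42907 and 37406. These 3 kinesins carry cargo toward the axon terminals.

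Conventional kinesin, or kinesin-1, is built from heavy chains, which hold the motor, and light chains, which bind cargo. *Kif5a*, the heavy chain gene of neurons, lies at chr10:127225696-127263348 (GRCm38, minus strand). It had a level of 8227, at percentile 99.7, the highest of the 57 genes per kilobase of merged exons. Per kilobase of coding sequence *Dynll2*, whose coding sequence is very short, came before it, with 78832 against 18664. *Kif5c*, which is also neuronal, had a level of 3084 at a base mean of 22025. *Kif5b*, the heavy chain gene found in most cells, had a level of 1752 at a base mean of 13982. *Kif5a* thus held 63.0% of the summed level of the 3 heavy chains, *Kif5c* 23.6% and *Kif5b* 13.4%. The order of the 3 was the same on every length scale, and the *Kif5a* share stayed between 59.9% and 63.0%.

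The light chains were also unequal. *Klc1* had a level of 3808 and *Klc2* of 2139, which gave them 59.1% and 33.2% of the summed level of the 4 light chain genes. *Klc4* had a level of 379. *Klc3*, a light chain gene best known from the testis, had a level of 113, which is 33.6 times lower than that of *Klc1* and just under the median of all genes. Of the exon bases of *Klc3*, 28.1% lie under an exon of *Ercc2* on the opposite strand, and *Ercc2* had a level of 195.

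**Figure D2:**
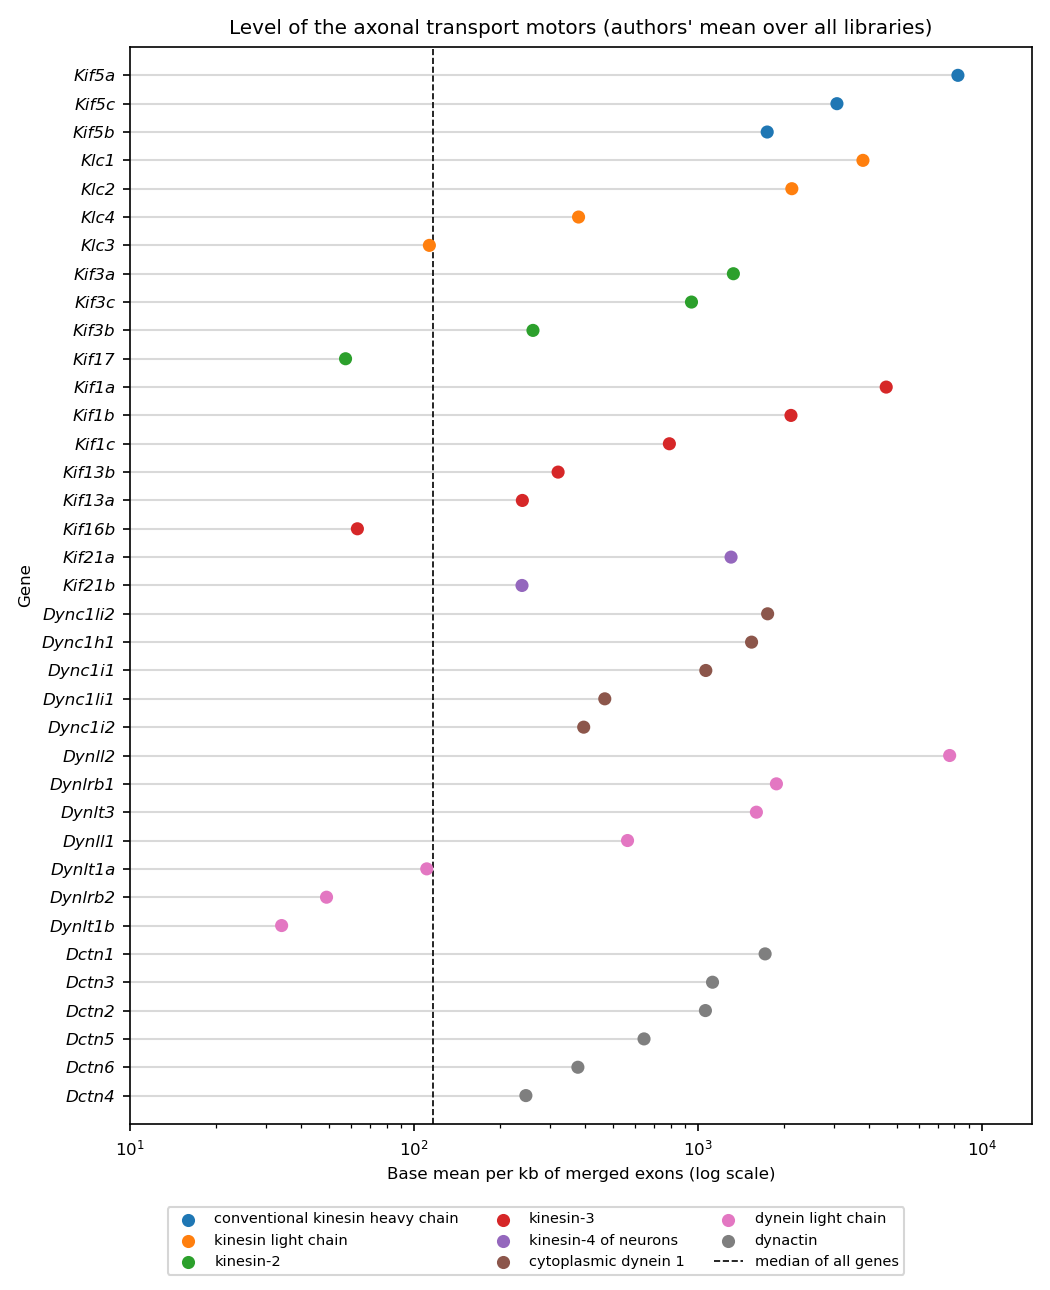
Level of each of the 37 axonal transport motors (base mean per kilobase of merged exons, log scale), coloured by role, with the median of all genes as a dashed line; a point is the authors' mean over all libraries and has no error bar. *Kif5a* (8227) and *Dynll2* (7693) lie highest, and 6 genes, from *Klc3* (113) down to *Dynlt1b* (34.2), lie left of the line.

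Kinesin-3 motors carry the precursors of synaptic vesicles and dense core vesicles. *Kif1a*, their neuronal member, had a level of 4599, after *Kif5a* and *Dynll2* on this scale, and 7986 per kilobase of coding sequence, where *Dynlt3*, *Klc1* and *Dynll1* were also above it. *Kif1b*, whose isoforms carry mitochondria or vesicle precursors, had a level of 2124, and the widely expressed *Kif1c* had 792. The distance of *Kif1a* from *Kif1b* depended on the length used, at 2.16 times per kilobase of merged exons and 1.16 times per kilobase of coding sequence. *Kif13b* and *Kif13a*, which carry membrane cargo, had levels of 321 and 241. *Kif16b*, a motor of early endosomes, had 63.1 and lay under the median of all genes.

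Kinesin-2 is a heterotrimer of *Kif3a* with *Kif3b* or *Kif3c* and the adaptor *Kifap3*, and it serves both axons and cilia. *Kif3a* had a level of 1332, *Kif3c* of 948 and *Kif3b* of 262. Per kilobase of coding sequence *Kif3c* came first, with 2940 against 2196 for *Kif3a*. Exons of *1110002L01Rik* and *Gm48512* on the opposite strand together cover 40.7% of the exon bases of *Kif3c*, and *1110002L01Rik* had a level of 450. *Kifap3* had a level of 1699. *Kif17*, the homodimeric kinesin-2 of dendrites and cilia, had 57.3. The kinesin-4 genes *Kif21a* and *Kif21b*, which act on the growth of microtubules in neurons, had levels of 1307 and 240.

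Cytoplasmic dynein 1 is the motor of retrograde transport. Its heavy chain gene *Dync1h1*, at chr12:110601452-110666945 (GRCm38, plus strand), had a level of 1543 at a base mean of 24165. The intermediate chains join the heavy chain to dynactin. Of these the neuronal *Dync1i1* had a level of 1065 and *Dync1i2* of 396, a ratio of 2.69 that was 1.15 per kilobase of coding sequence. The light intermediate chains, which bind cargo adaptors, were *Dync1li2* at 1758 and *Dync1li1* at 469. *Dync1li2* was above *Dync1li1* on every scale, by 3.28 to 6.20 times.

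The light chains of dynein come in 3 families, and 1 gene held most of the counted level in each. In the LC8 family *Dynll2* had a level of 7693, next to *Kif5a* on this scale, and *Dynll1* had 564. In the roadblock family *Dynlrb1* had 1888 and *Dynlrb2*, which is linked to cilia and testis, had 49.2. In the Tctex family *Dynlt3* had 1605, which was 91.6% of the family's sum. *Dynlt1a* had 111 and *Dynlt1b* 34.2. The *Dynlt1* genes are near copies of each other. Of all stretches of 100 bases in the transcripts of *Dynlt1a* and *Dynlt1b*, 54.7% and 82.0% also occur in transcripts of another gene, on either strand. For *Dynlt1a* the other genes include *Tmem181a*, not a *Dynlt1* copy. Exons of *Tmem181a* and *Gm26848* on the opposite strand cover 14.6% of the exon bases of *Dynlt1a*. Only uniquely mapped reads were counted, so the levels of these genes and the share of *Dynlt3* are uncertain. LC8 light chains also bind many proteins outside dynein.

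**Figure D3:**
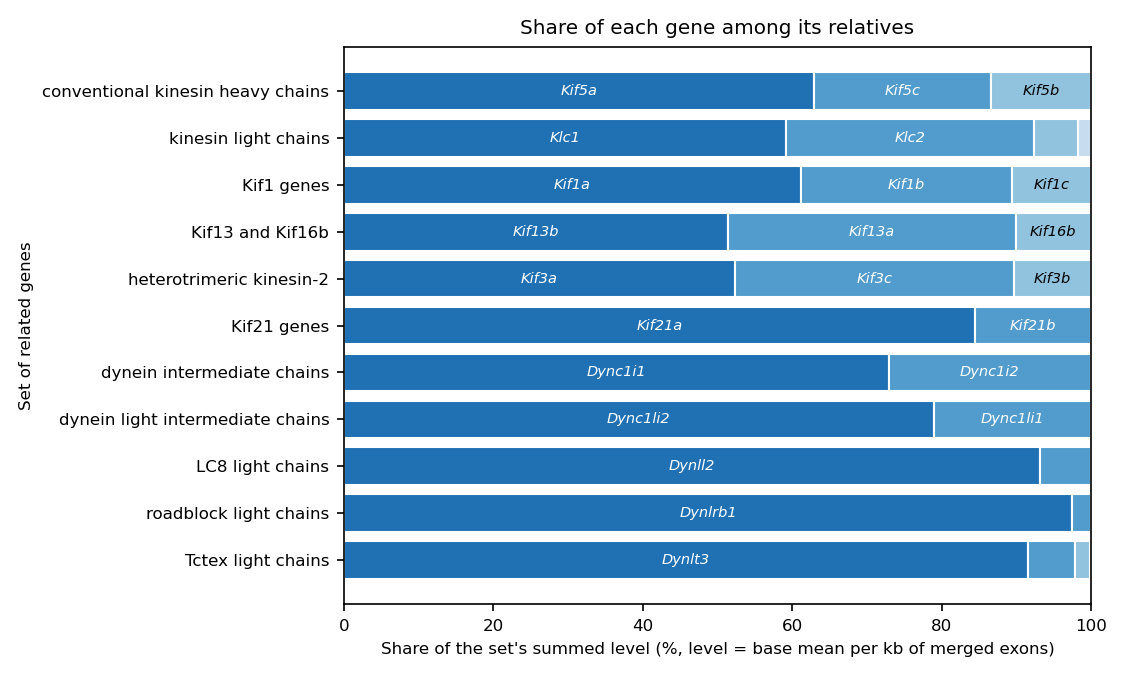
Share of each gene in the summed level (base mean per kilobase of merged exons) of its set of related genes, in percent, with segments ordered from the highest share. *Dynlrb1* takes 97.5%, *Dynll2* 93.2% and *Dynlt3* 91.6% of their light chain families, against 51.4% for *Kif13b* in its set. The *Dynlt3* share is uncertain, since the *Dynlt1* genes share much sequence and only uniquely mapped reads were counted.

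Dynactin tethers dynein to cargo and to the microtubule. *Dctn1* encodes its large subunit p150, which binds the microtubule, and had a level of 1723. *Dctn2*, the gene of dynamitin, had 1062, and *Dctn3* had 1124. *Dctn5*, *Dctn6* and *Dctn4* had levels of 645, 377 and 248. Per kilobase of coding sequence these 3 genes had 3130, 1841 and 2048, so the last place depended on the length used. All 6 were above the median of all genes. *Dctn1* was 1.62 times *Dctn2* per kilobase of merged exons and 0.691 times *Dctn2* per kilobase of coding sequence, so these values set no order between them. The ratio of *Dync1h1* to *Dctn1* was likewise 0.896 and 0.595, and 2.16 without scaling by length.

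*Kif5a* and *Dctn2* are neighbours. They lie on opposite strands of chromosome 10 with their starts facing each other, 3019 bases apart in the GENCODE annotation. Their levels were 8227 and 1062.

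Partners of the motors that the symbol rule leaves out were looked at in a fixed list of 35 genes, and all 35 had a base mean of at least 10. Their median level was 613, and 15 of them were above percentile 90. Among the 6 other dynactin subunits, levels ran from 291 for *Capza1*, which caps actin filaments, to 1369 for *Actr1a*, the actin-related protein of the dynactin filament. Among the 24 adaptors and regulators, *Clstn1*, which links kinesin light chains to vesicles, had the highest level, 4410. The lowest was *Spdl1*, an adaptor of dynein at the kinetochore, with 8.96. Of the 5 other genes of the kinesin family, the adaptor *Kifap3* was highest and *Cenpe*, a kinetochore motor, lowest at 5.23. *Spdl1* and *Cenpe* lay within the range of the mitotic kinesins, which ran from 1.42 to 53.5, as did *Kifc1* (15.5) and *Bicd1* (43.1). Among the other regulators of dynein, *Nde1*, *Ndel1* and *Pafah1b1* had levels of 448, 631 and 1572.

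The mitotic kinesins were found at very low levels. *Kif20a*, a motor of cytokinesis, had a level of 53.5 at a base mean of 232, the highest of the 9 per kilobase of merged exons. *Kif22*, which binds chromosomes, had 27.8 at a base mean of 136, and was at 64.5 against 63.1 for *Kif20a* per kilobase of the longest coding transcript. Then came the chromosome motor *Kif4* with 7.88, *Kif11*, which pushes the spindle poles apart, with 6.29, and *Kif18a*, which limits the length of spindle microtubules, with 3.90. *Kif20b* and *Kif23*, which act in cytokinesis, had levels of 3.40 and 3.19. The spindle motor *Kif15* had 2.95, and *Kif14*, of cytokinesis, had 1.42.

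*Kif20a* and *Kif22* thus stood apart from the other 7, with levels of 53.5 and 27.8 against 7.88 for *Kif4*, the highest of those. Of the exon bases of *Kif20a*, 29.3% lie under an exon of *Cdc23* on the opposite strand, and *Cdc23* had a level of 111. For *Kif4* the share was 15.1%, under *Pdzd11*, which had a level of 268. The strand setting of the counting is not given in the sources used here, and the part of these overlaps in the levels was not tested. The markers of dividing cells, *Mki67*, *Top2a*, *Cdk1*, *Ccnb1* and *Aurkb*, had base means of 66.8, 57.4, 25.1, 13.0 and 6.61, and levels from 2.24 to 6.64. The levels of 5 of the 9 mitotic kinesins were within that range, and those of *Kif20a*, *Kif22* and *Kif4* were above it and that of *Kif14* below. Only 2 of the 37 transport motors, *Dynlrb2* and *Dynlt1b*, had a level below that of *Kif20a*.

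**Figure D4:**
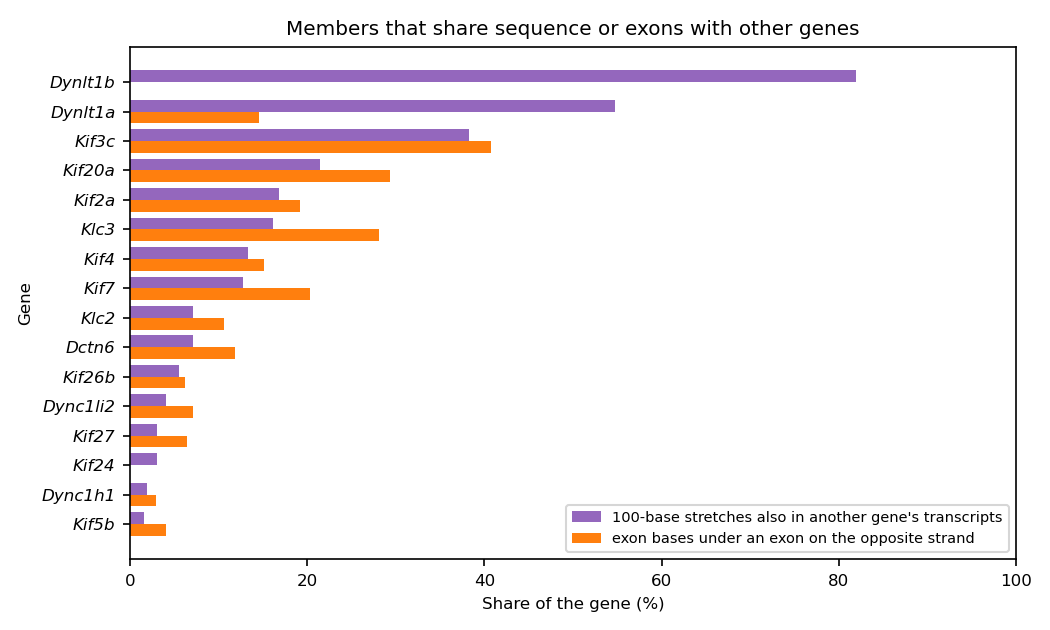
Share of each gene, in percent, made of stretches of 100 bases that also occur in transcripts of another gene on either strand (purple) and of exon bases that lie under an exon on the opposite strand (orange), for members where either share is over 2%. *Dynlt1b* reaches 82.0% for the first and *Kif3c* 40.7% for the second, and 39 of the 57 genes have no overlap on the opposite strand.

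The ciliary motors move cargo in cilia or shape them. In the cord, cilia are found on the ependymal cells that line the central canal, among other cells. *Dync2li1* and *Dync2h1*, the light intermediate and heavy chain genes of dynein 2, the retrograde motor of cilia, had levels of 157 and 64.3. *Kif19a*, which limits the length of cilia, had 70.9. *Kif7*, a regulator of Hedgehog signalling at the ciliary tip, had 47.3, with 20.3% of its exon bases under exons of the opposite strand. *Kif9* and *Kif6*, of motile cilia, had 33.7 and 21.3. *Kif27* had 14.9 and *Kif24*, which acts at the centriole, 4.78. The ependymal genes *Foxj1*, *Ccdc153* and *Dnah5* had levels of 319, 36.8 and 5.94, at base means of 836, 74.9 and 92.9. The 3 other kinesins were *Kif2a*, which takes microtubules apart and had a level of 299, and *Kif26b* and *Kif26a*, which are developmental kinesins and had levels of 34.0 and 30.6.

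The classes also differed in the sequence around their starts, which the symbol rule did not use. Genes of the late cell cycle are known to carry a cell cycle homology region (CHR), TTTGAA, in the promoter, through which the DREAM and B-MYB complexes act. RefSeq promoter windows of GRCm38.p6, from 250 bases before to 50 after the start, were at hand for 43 of the 57 genes. Of the mitotic kinesins, *Kif20a* had no window. Among genes with a window, a CHR on either strand was found in 7 of 8 mitotic kinesins, all but *Kif18a*, in 1 of 6 ciliary motors, *Kif27*, and in 2 of 26 transport motors, *Dctn1* and *Kif1a*. The windows with the CHR of *Kif4*, *Kif14*, *Kif27*, *Dctn1* and *Kif1a* lie inside the GENCODE gene, downstream of its 5′ end. The window of *Kif1a* at the 5′ end held none. Counted by window, the mitotic, ciliary and transport shares were 87.5%, 14.3% and 6.45%, against 17.9% of all 32851 windows. The 250 bases before the start are shown for the 3 mitotic kinesins with a CHR just before the start, and, as a contrast, for *Kif5c*, a neuronal heavy chain gene of high level whose window held no CHR. They are given 5′ to 3′ in the direction of the gene, with each CHR in capitals. *Kif11* is at chr19:37376132-37376381 (plus strand), *Kif15* at chr9:122950831-122951080 (plus), *Kif22* at chr7:127042421-127042670 (minus) and *Kif5c* at chr2:49619036-49619285 (plus).
Kif11: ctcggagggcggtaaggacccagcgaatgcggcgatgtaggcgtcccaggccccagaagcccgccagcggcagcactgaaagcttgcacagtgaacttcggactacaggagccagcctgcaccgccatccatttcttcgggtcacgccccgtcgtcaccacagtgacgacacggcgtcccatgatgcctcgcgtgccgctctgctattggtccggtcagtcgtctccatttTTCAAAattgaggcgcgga
Kif15: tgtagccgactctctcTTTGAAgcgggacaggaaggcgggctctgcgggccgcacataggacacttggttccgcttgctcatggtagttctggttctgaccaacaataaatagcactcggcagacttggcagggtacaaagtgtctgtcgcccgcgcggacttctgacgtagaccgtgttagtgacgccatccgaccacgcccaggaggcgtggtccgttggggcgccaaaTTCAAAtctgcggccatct
Kif22: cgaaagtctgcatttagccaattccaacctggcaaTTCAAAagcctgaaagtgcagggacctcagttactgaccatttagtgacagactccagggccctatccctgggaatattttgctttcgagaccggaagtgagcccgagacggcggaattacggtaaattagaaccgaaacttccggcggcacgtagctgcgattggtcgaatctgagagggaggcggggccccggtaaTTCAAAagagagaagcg
Kif5c: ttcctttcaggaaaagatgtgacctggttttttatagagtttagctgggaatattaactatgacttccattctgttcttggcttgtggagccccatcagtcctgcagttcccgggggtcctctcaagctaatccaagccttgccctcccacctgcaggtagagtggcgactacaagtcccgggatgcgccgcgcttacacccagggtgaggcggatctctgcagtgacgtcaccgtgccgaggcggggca

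In *Kif11* and *Kif15* a CHR began 19 bases before the start, and in *Kif22* one began 17 bases before it. All 3 read ttcaaa in the direction of the gene, the reverse complement of the CHR. *Kif15* and *Kif22* held a second match at 234 and 215 bases. In *Kif23*, *Kif20b* and *Kif4* the first match began at base 3, 8 and 20 after the start, and in *Kif14* it began 228 bases before. For *Kif4* and *Kif14* that start lies inside the GENCODE gene. A match that began within 20 bases of the start was thus found in 6 of the 8 mitotic windows, in 0 of the 31 windows of transport motors and in 2.22% of all windows. The limit of 20 bases was set after these positions were seen. *Kif26b* held such a match too, 9 bases before its start, and of the 3 mitotic kinesins under the minimum, *Kif18b* and *Kif2c* held a CHR at base 4 after and 103 bases before their starts and *Kif2b* held none. The *Kif2c* window also lies inside its GENCODE gene. A match of these letters is not a bound site.

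Other motifs divided the classes less sharply. The CCAAT box was found in 62.5% of the mitotic windows, 57.1% of the ciliary windows, 32.3% of the transport windows and 37.4% of all windows. The GC box, GGGCGG, was in 74.2% of the transport windows and 62.5% of the mitotic ones and 42.9% of the ciliary ones, against 35.7% of all windows. Both classes were rich in G and C, with median contents of 62.0% and 61.5% against 52.7% over all windows. They held a median of 24 and 25.5 CpG dinucleotides, against 7. The shorter site of the X-box, GTTGCC, through which RFX factors act on ciliary genes, was in 57.1% of the 7 ciliary windows, or 3 of 6 genes, in 35.5% of the transport windows, 25% of the mitotic windows and 12.5% of all windows. The letters TATAAA were in 3.23% of the transport windows, 0% of the mitotic windows, 42.9% of the ciliary windows, or 2 of 6 genes, and 13.6% of all windows. *Kif9* counts in these ciliary shares with 2 windows that overlap. In the transport shares *Kif1b*, *Dynlrb1* and *Dync1i2* each count with 2 overlapping windows, all of which hold the GC box. By gene, the GC box was found in 20 of 26 transport motors. Each motif was searched on both strands, and none of the 5 contains another.

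**Figure D5:**
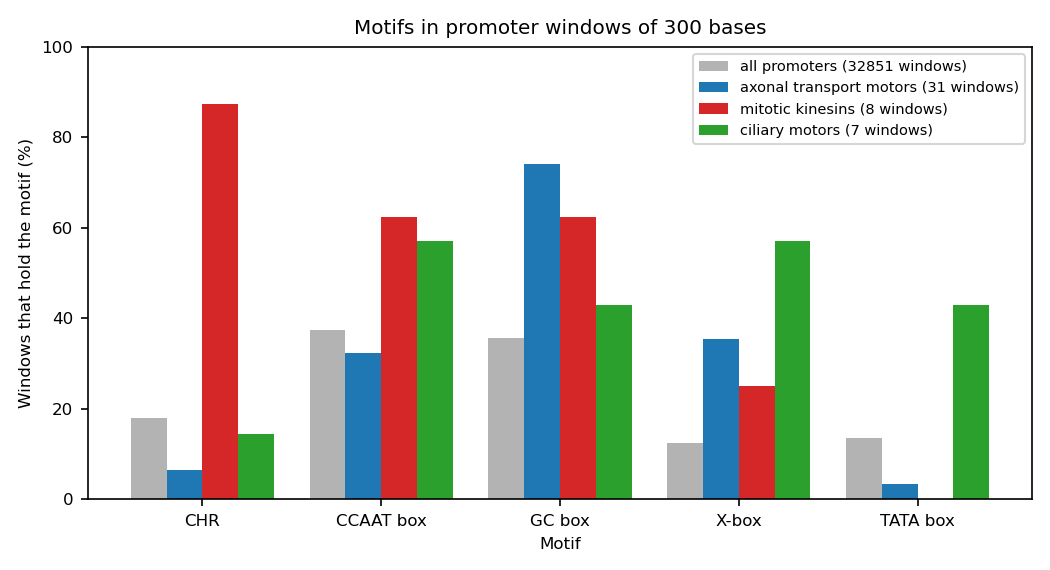
Share of promoter windows that hold each of 5 motifs on either strand, in percent, for all windows and for the windows of 3 classes. The CHR stands at 87.5% in the 8 mitotic windows and at 6.45% in the 31 windows of transport motors, against 17.9% of all windows.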

How the data were processed

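RNA of the spinal cord of 5 SOD1G93A and 5 WT mice was sequenced by the authors from stranded mRNA libraries. The submitters' processing notes name HISAT2 2.1.0, featureCounts 2.0.2 and DESeq2. According to the paper's methods, reads were filtered with Fastp, aligned to mm10, counted on genes where uniquely mapped, and the groups were compared by the authors with DESeq2. The authors deposited 1 table for the whole series. Its base mean, a signal value that is never negative, is the authors' mean over all libraries of counts divided by size factors, and it is the only measured column used here. The other 5 columns hold the authors' own comparison of SOD1G93A with WT (the log2 fold change, its standard error, the Wald statistic, the p-value and the adjusted p-value). They were not used, so no test between the genotypes was made. Values of single libraries were not used here either, so the depth per library, the spread between mice and the precision of each value are unknown.

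Gene models were those of GENCODE release 21 for GRCm38, the build that mm10 denotes, and were found by symbol for all 57 members and for 98.2% of the 15918 genes at or above the minimum of 10. The annotation of the authors' counting is not given in the sources used here. The base mean was divided by the length of the union of a gene's exons in kilobases. Alternatives were the coding length, the longest coding transcript, no scaling and other minimums. Shared sequence was searched as stretches of 100 bases, the read length, in the transcripts of all genes. Promoter windows were from RefSeq. The interval and length code was tested on simulated data. The classes, the partners and the markers were chosen with earlier results of these data known. All transport motors and all members of the smaller classes were named, with the 3 genes on each side of the minimum and the highest and lowest partner of each kind. Other partners, neighbours and markers were named after their values were seen. A marker gene of the list is not reported here. Python 3.11.15 was used with pandas 2.3.3, numpy 2.4.6 and matplotlib 3.10.9.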

Additional observations from a re-analysis of the deposited data

How the results depend on the processing

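The median level of the transport motors was above that of the mitotic kinesins under every alternative run, but the ratio of the medians moved. From 243 it went to 174 per kilobase of coding sequence, 138 per kilobase of the longest coding transcript, 99.3 with no scaling by length, 256 with no minimum above 0, 26.1 with a minimum of 50, and 279 without *Kif20a* and *Kif22*. The minimum of 50 leaves only those 2 mitotic kinesins. The *Kif5a* share of the heavy chains was 63.0%, and 59.9% per kilobase of coding sequence, 62.3% per kilobase of the longest coding transcript and 61.5% with no scaling. The number of members was 57, and 63, 47 and 46 with no minimum above 0 and with minimums of 50 and 100. The number above the median of all genes was 33 and ran from 32 to 34. The longest transcript and the removal of *Kif20a* and *Kif22* were chosen after seeing the data. Over the 37 transport motors the order of levels had a Spearman's rho of 0.882 with that per coding kilobase and 0.968 with that per kilobase of the longest transcript, across genes that share the same base means. No paired analysis was possible because each gene has 1 value pooled over all mice. For the same reason no mouse could be left out, and the depth limits of single libraries are unknown.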
